A study of Rattus norvegicus with 9 samples.

Results

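The cytosolic ribosomal protein genes were followed on 9 single-colour rat arrays of duct tissue that takes part in kidney formation. Members were the probe sets whose 1 gene symbol is an Rpl, Rps, Rpsa or Rplp name, without pseudogenes, S6 kinases or mitochondrial ribosomal proteins. The rule gave 55 probe sets for 48 genes, of 31042 probe sets that are not array controls and 14217 genes with 1 symbol. Of these genes, 33 encode large-subunit and 15 small-subunit proteins. A further 36 probe sets carried several symbols of which at least 1 fitted the naming rule, and these were not used. The ureteric bud (UB) arrays held pools of about 100 buds, taken from the embryonic kidney after light digestion with trypsin. The WD+IM arrays held pools of about 50 Wolffian ducts that kept their attached mesodermal cells. The WD arrays held pools of about 100 Wolffian ducts dissected free with no enzyme. All tissue was from untreated Sprague-Dawley rat embryos at day 13, dissected without culture, and each group had 3 pools that the labels call biological replicates.

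The ribosome is built from ribosomal RNA and a large set of different proteins, most of them present in a single copy per particle. The proteins of the small subunit read the messenger RNA, and those of the large subunit surround the site where peptide bonds form and the tunnel by which the new chain leaves. In mammals most ribosomal protein messengers begin with a C followed by an unbroken run of pyrimidines, the terminal oligopyrimidine motif. Through it the mTOR pathway and the RNA-binding protein Larp1 set how much of these messengers is translated and kept stable. The ureteric bud is an outgrowth of the Wolffian duct and branches to form the collecting system of the kidney.

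The bases around the annotated transcript start are shown because many members hold a pyrimidine run there. Each sequence below is the sense strand from 25 bases before to 14 bases after the start base, 40 bases in all, from RefSeq on GRCr8, with pyrimidine runs of at least 8 bases in capitals. The first 4 belong to bright members whose run covers the annotated start base, without having to begin there. The other 4 belong to dim members that are described singly below.
Rps23, chr2:23814492-23814531, plus strand: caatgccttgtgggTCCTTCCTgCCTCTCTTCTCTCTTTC
Rpl27a, chr1:172974548-172974587, plus strand: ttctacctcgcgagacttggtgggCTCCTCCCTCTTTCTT
Rps24, chr16:96492-96531, plus strand: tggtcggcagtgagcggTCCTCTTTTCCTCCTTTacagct
Rpl22, chr5:168117936-168117975, plus strand: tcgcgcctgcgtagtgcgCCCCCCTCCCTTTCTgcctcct
Rps4y2, chr4:183000888-183000927, plus strand: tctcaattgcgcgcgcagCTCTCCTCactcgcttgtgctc
Rpl39, chrX:121195882-121195921, minus strand: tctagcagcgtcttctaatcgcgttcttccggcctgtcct
Rps27l, chr8:76443633-76443672, plus strand: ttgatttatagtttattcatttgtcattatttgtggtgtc
Rpl7l1, chr9:21695693-21695732, plus strand: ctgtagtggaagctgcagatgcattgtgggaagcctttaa

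Of the 41 member genes in the RefSeq table, 25 (61.0%) held a run of at least 8 C or T on the sense strand of this window, against 4385 of 27457 genes in all (16.0%). The letters CTTTC, also searched on the sense strand, were in 17 members (41.5%) and in 5.15% of all genes. A run can include these letters. In 14 members (34.1%) a run covered the annotated start base itself, against 4.43% of all genes. In the others the run lay before or after that base. Among the members with a mean signal above 50000, 22 of 32 (68.8%) held a run, and among the dimmer ones 3 of 8 (37.5%). A match describes the letters of the window and does not mark a site in use.

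The deposited values are linear intensities that had been scaled so that all 9 arrays share a trimmed mean near 2501. The arrays differed in other ways that run alongside the tissues. For the bacterial spike-in controls, bioC over bioB lay between 2.868 and 2.992 in UB. WD+IM replicate 3 was close to these at 2.928, and the other 5 arrays lay between 1.016 and 1.226. Duct epithelium markers summed to 230211 to 248978 intensity units in UB, 76580 to 117274 in WD+IM and 247299 to 269019 in WD (12 of 12 genes measured). These sums hide members that differed in opposite directions. In UB against WD 2 of the 12 were called higher and 5 lower (13.3% and 19.6% of all genes). Ret had 38887 to 49028 in UB and 6340 to 8168 in WD. Krt19 had 464 to 570 in UB, 12042 to 16738 in WD+IM and 14251 to 14889 in WD. Mesenchyme markers (11 of 11) summed to 10180 to 14156 in UB, 211664 to 251069 in WD+IM and 95267 to 132921 in WD. Red cell markers (10 of 10) summed to 11974 to 40095 in UB, 218150 to 315700 in WD+IM and 232540 to 357379 in WD. Endothelium markers (9 of 9) summed to 1724 to 2609 in UB, 35587 to 36633 in WD+IM and 4059 to 5417 in WD. No listed marker was at 0. In pooled tissue, fewer cells of a type and less RNA per cell cannot be told apart. What the spike-in ratio and the mixture of cells contribute to the differences below was not tested. In some fits the spike-in ratio is a term, but it nearly coincides with UB, so ratio and tissue cannot be told apart.

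The family fell into 2 ranges of signal. Of the 46 genes tested, 38 had a mean above 50000, with signals from 52107 to 234811, and 35 of them were among the 100 brightest probe sets of the platform. The other 8 genes (Rpl26l1, Rpl28, Rpl39, Rpl39l1, Rpl7l1, Rps13, Rps27l and Rps4y2) ranged from 251 to 22229. This division was made after the values were seen. Rpl30 and Rpl3l did not pass the filter on low signal, which asked for at least 3 arrays above the array's 40th percentile. Rpl3l, in mammals the striated-muscle relative of Rpl3, averaged 71 ± 35.3 in UB, 141 ± 16.7 in WD+IM and 48.8 ± 30.6 in WD (SD, n = 3 each). Probe sets differ in brightness for reasons of design, so no gene's level is set against another's. Ribosomal protein probe sets can also share sequence with the many processed copies of these genes.

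**Figure D1:**
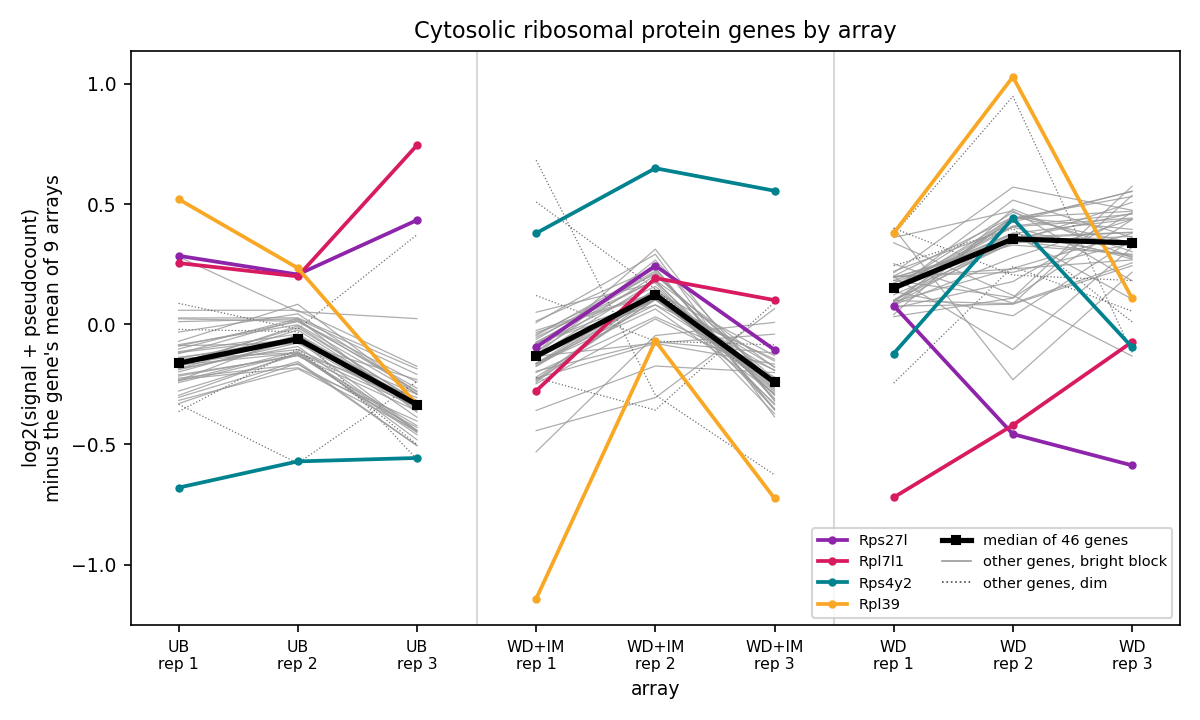
Signal of the 46 tested ribosomal protein genes on each array, as log2(signal + 46) minus the gene's own mean over 9 arrays. Thin lines join the 3 arrays of a tissue and carry no order. Black squares are the median of the 46 genes, which lies at -0.16, -0.06 and -0.33 in UB, -0.13, 0.12 and -0.24 in WD+IM and 0.15, 0.35 and 0.34 in WD. The coloured lines are 4 dim genes that are described singly in the text.

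The comparison of UB with WD asks how the bud differs from the duct that gives rise to it. In the deposited scaling most ribosomal protein genes were lower in UB. Of 46 genes tested, 30 were lower and 2 higher in UB (limma, Benjamini-Hochberg adjusted p under 0.05 over 20330 probe sets), against 19.6% and 13.3% of the 10809 genes tested. That is 69.6% of the family called in either direction, against 33.0% of all genes. The median log2 difference was -0.44, that is 26.3% lower, and that of all genes was -0.08. The groups did not overlap in 40 genes, with 38 lower and 2 higher in UB, against 29.7% and 22.1% of all genes. By subunit, 19 of 31 large-subunit genes were lower and 1 higher (median -0.42), and 11 of 15 small-subunit genes were lower and 1 higher (median -0.51).

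Rps29, Rpl27a and Rps6 show the difference pool by pool. Rps29, a small zinc-binding protein of the 40S subunit, had signals of 130376, 144774 and 115681 in UB and 183358, 234811 and 219667 in WD. Every UB pool was below every WD pool. The log2 difference was -0.70 ± 0.15 (SE; limma adjusted p = 0.00487). Rpl27a, of the large subunit, had 107414, 119136 and 93506 in UB and 147306, 178127 and 194785 in WD, a log2 difference of -0.70 ± 0.16 (limma adjusted p = 0.00752). Its groups did not overlap either. Rps6, the protein phosphorylated by the S6 kinases below mTOR, had 96267, 105466 and 88245 in UB and 126803, 162899 and 173360 in WD. UB was again below WD in every pool, by -0.67 ± 0.16 on the log2 scale (limma adjusted p = 0.0101).

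Members known for different functions moved by similar amounts. Rpl5 and Rpl11 join the 5S ribosomal RNA in a particle that, when unassembled, binds Mdm2 and thereby stabilises p53. Rpl5 averaged 109911 ± 12773 in UB and 167240 ± 16165 in WD (SD, n = 3 each), a log2 difference of -0.61 ± 0.15 (limma adjusted p = 0.00952). Rpl11 averaged 110399 ± 10586 in UB and 144197 ± 11296 in WD, a log2 difference of -0.39 ± 0.11 (limma adjusted p = 0.0237). Rpl3, close to the peptidyl transferase centre, was lower in UB by -0.61 ± 0.14, and Rps23, at the decoding centre, by -0.58 ± 0.14. Rplp0, the base of the stalk that recruits elongation factors, differed by -0.40 ± 0.14 (limma adjusted p = 0.0451). The remaining lower calls were Rpl7, Rpl7a, Rpl12, Rpl18, Rpl19, Rpl22, Rpl23, Rpl23a, Rpl26, Rpl27, Rpl34, Rpl35, Rpl37a, Rpl41, Rps3a, Rps4y2, Rps9, Rps15, Rps15a, Rps16, Rps24 and Rps28, at -0.69 to -0.36. Second, dim probe sets of Rpl3 and Rpl7 did not pass. They lay at -0.43 ± 0.27 (limma adjusted p = 0.25) and 0.05 ± 0.30 (limma adjusted p = 0.911).

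Of the 46 genes, 14 did not pass the test in UB against WD. Among the bright ones, Rps3, at the entry of the messenger channel, differed by -0.23 ± 0.14 (limma adjusted p = 0.225). Rpl13a, known for a second role in silencing inflammatory messengers in human cells, differed by -0.17 ± 0.15 (limma adjusted p = 0.401). Rpl21 had 86046, 73454 and 71991 in UB and 89600, 76992 and 64617 in WD, and the groups overlapped, at 0.01 ± 0.16. Rps13, a dim member, had the most negative difference of the family, -0.72 ± 0.35, but did not pass (limma adjusted p = 0.141), with WD signals from 949 to 2036. Rpsa, which also exists as a laminin receptor at the cell surface, was measured by 3 probe sets. These gave -0.46 ± 0.12 (limma adjusted p = 0.0156), -0.36 ± 0.14 (limma adjusted p = 0.0663) and 0.26 ± 0.32 (limma adjusted p = 0.568).

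Both higher members are paralogues rather than core proteins. Rps27l is a copy of Rps27 and, in human and mouse cells, a p53 target. It had 2615, 2475 and 2903 in UB and 2259, 1545 and 1408 in WD. Every UB pool was above every WD pool, with a log2 difference of 0.63 ± 0.21 (limma adjusted p = 0.0372). The call was lost with the replicate block (limma adjusted p = 0.0608) and with the spike-in ratio as a term (0.81, limma adjusted p = 0.292). Without 1 array it was lost for UB replicate 1, 2 or 3 and WD replicate 2 or 3, with limma adjusted p of 0.0966, 0.0614, 0.115, 0.098 and 0.109 and differences of 0.50 to 0.68. Rpl7l1 is a relative of Rpl7 that acts in large-subunit assembly in human cells. It had 15812, 15214 and 22229 in UB and 8021, 9890 and 12585 in WD, again with no overlap, at 0.80 ± 0.20 (limma adjusted p = 0.0105). Its second probe set had 12976, 13368 and 12941 in UB and 13126, 11850 and 11252 in WD. Those groups overlapped, at 0.12 ± 0.18 (limma adjusted p = 0.636), so the 2 probe sets of Rpl7l1 disagree. The call of the first was lost with the spike-in term (0.66, limma adjusted p = 0.379) and with the beta-actin term (0.43, limma adjusted p = 0.215). The paralogues Rpl26l1 and Rpl39l1 did not pass, at -0.42 ± 0.23 and -0.64 ± 0.35. Rps4y2, also a copy of another member of the ribosome, was called in the other direction. It was lower in UB by -0.68 ± 0.17 (limma adjusted p = 0.00983), a call that some settings lost, as given below.

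How far the family as a whole lies below WD depends on how the arrays are put on 1 scale. With quantile normalization 3 members were called (2 higher, 1 lower) and the family's median was -0.02. With each array centred on its median signal 2 were called, both higher, and the family's median was 0.02. That centring moved the median of all genes to 0.39, so relative to all genes the family lay at -0.37, against -0.36 in the deposited scaling and -0.03 after quantile normalization. Quantile normalization gives the brightest probe sets of all arrays equal values, and most members hold those ranks. With the spike-in ratio as a term in the fit no member passed by limma (1 was lower and 0 higher at an unadjusted p under 0.05), and the family's median was -0.23. Then 1.15% of all genes were higher and 3.66% lower, with a median of -0.09. The term marks arrays with a ratio above 2, which are all UB arrays, no WD array and WD+IM replicate 3. It nearly coincides with UB against WD, so ratio and tissue cannot be told apart by this fit. Including the actin 3′/5′ signal ratio, a measure of RNA integrity, left 9 calls at a family median of -0.50. That ratio was 1.484 to 2.298 in UB, 1.474 to 1.921 in WD+IM and 2.189 to 4.87 in WD. Leaving out UB replicate 1, UB replicate 3, WD replicate 2 or WD replicate 3 left 16, 15, 16 and 17 calls.

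The share of signal can be read on each array without a fit. The representative probe sets of the family held 3.66, 3.88 and 3.32% of all signal in UB, 3.77, 4.36 and 3.52% in WD+IM and 4.49, 4.93 and 5.12% in WD. All 3 WD arrays lay above the other 6. The highest signal of an array was 122387 to 151560 in UB, 133274 to 188290 in WD+IM and 195670 to 247622 in WD. The 99th percentile of signal was 41000 to 44898 over all 9 arrays, with UB at 41373 to 44898 and WD at 42048 to 42170. The highest signals of UB and WD+IM overlapped, and those of WD lay above both.

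**Figure D2:**
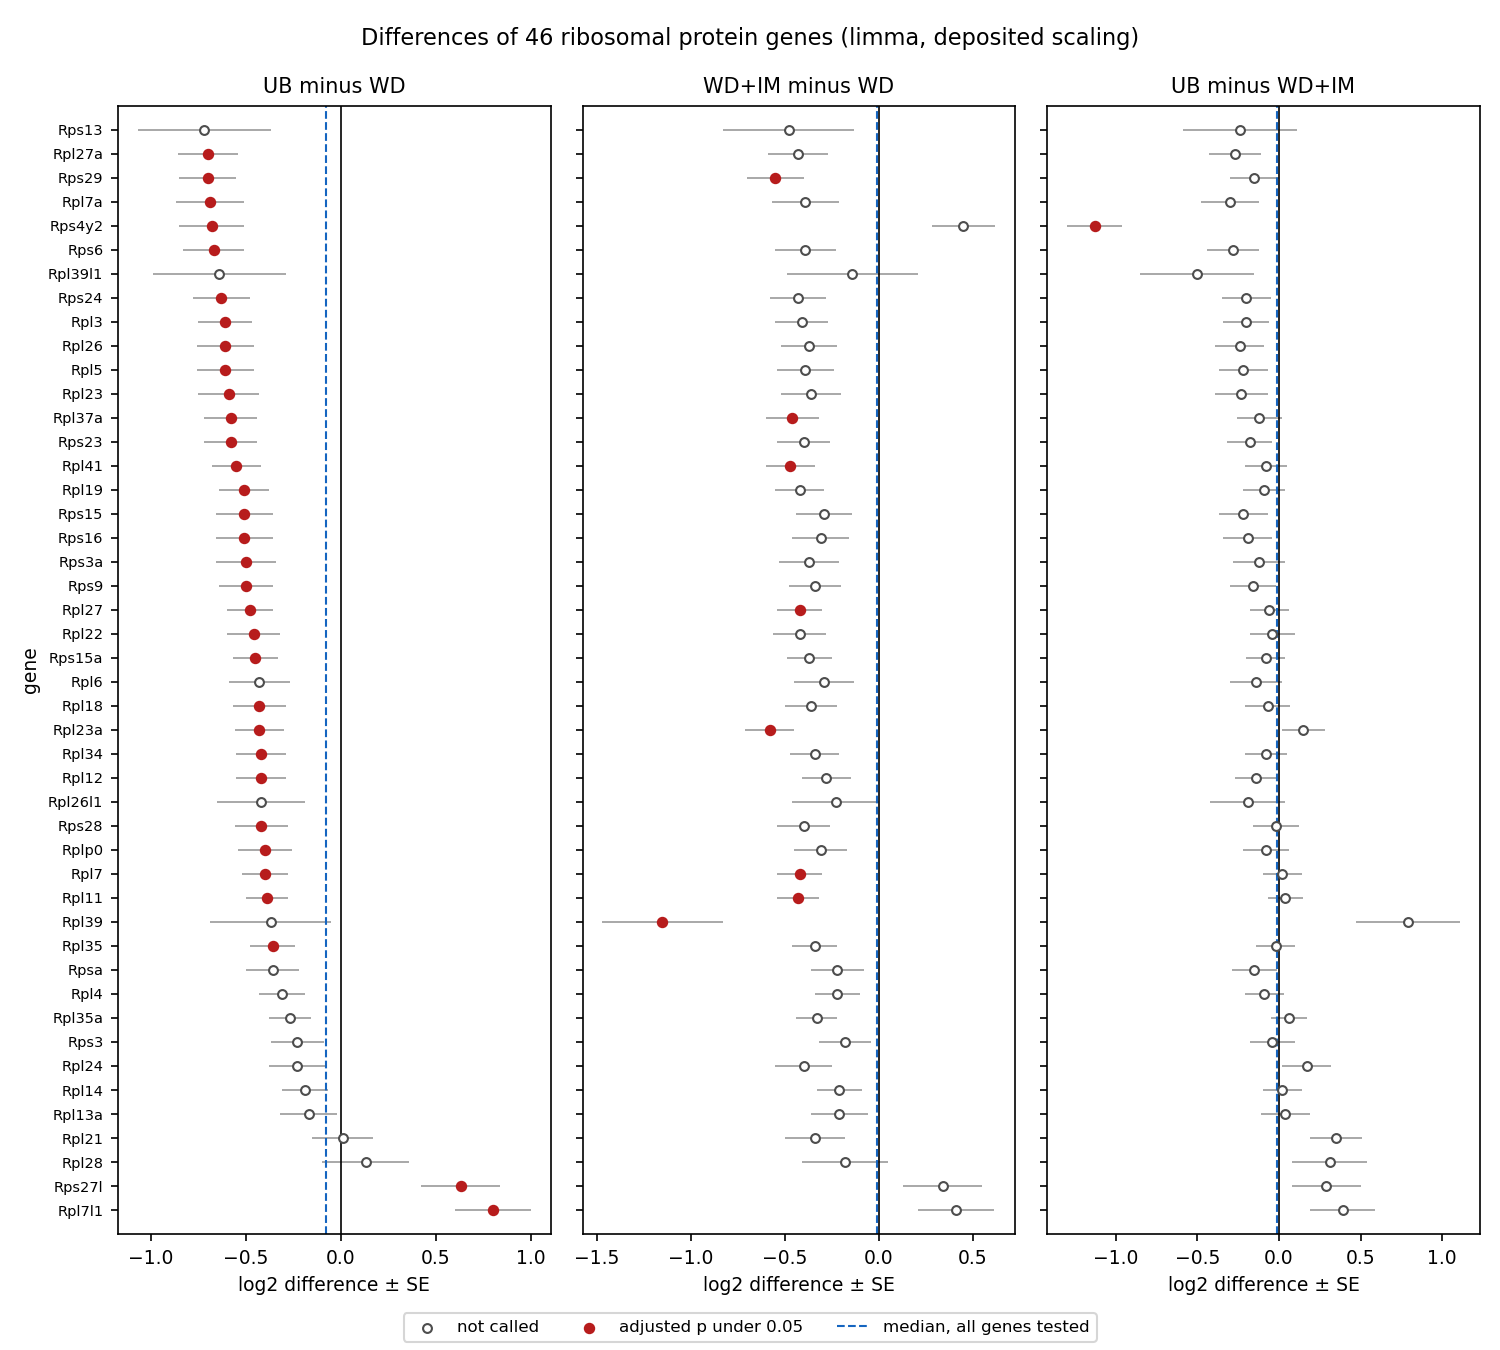
Log2 difference with its standard error for the 46 tested ribosomal protein genes in each comparison, in the deposited scaling. Filled points have a limma adjusted p under 0.05, and the dashed line is the median of all genes tested. In UB minus WD 30 genes are called below 0 and 2 above, in WD+IM minus WD 8 are called below 0, and in UB minus WD+IM 1 gene, Rps4y2, is called.

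The WD pools, though dissected free, still held mesenchyme marker signal, at 95267 to 132921 against 211664 to 251069 in WD+IM. WD+IM against WD therefore compares ducts with more and with less of that signal. Here 8 of 46 genes were lower and 0 higher in WD+IM, against 8.23% and 6.49% of all genes tested, and the median difference was -0.36, against -0.01 over all genes. Taken in either direction, 17.4% of the family and 14.7% of all genes were called. Of the 46 differences, 43 were negative. The groups did not overlap in 16 genes, all lower in WD+IM, against 17.2% of all genes. The 8 calls were Rpl39, Rpl23a, Rps29, Rpl41, Rpl37a, Rpl11, Rpl27 and Rpl7. A second, dim probe set of Rpl7 differed by 0.11 ± 0.30 (limma adjusted p = 0.848). Rpl23a, which sits by the exit of the peptide tunnel, averaged 82032 ± 5566 in WD+IM and 123073 ± 12378 in WD (SD, n = 3 each). Its log2 difference was -0.58 ± 0.13 (limma adjusted p = 0.0103). Rpl11 had 102016, 112775 and 106237 in WD+IM and 132542, 155097 and 144951 in WD, which did not overlap, at -0.43 ± 0.11 (limma adjusted p = 0.0275). Rps29 had 140106, 174516 and 122140 in WD+IM, all below the WD signals given above, at -0.55 ± 0.15 (limma adjusted p = 0.0309).

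Rpl39, a very short protein lining the exit tunnel, had the largest difference of the family in WD+IM against WD. It had 835, 1808 and 1131 in WD+IM and 2484, 3924 and 2050 in WD. No WD+IM pool reached a WD pool, and the log2 difference was -1.15 ± 0.32 (limma adjusted p = 0.0346). In UB it had 2744, 2241 and 1496, which overlap the WD signals, at -0.37 ± 0.32 (limma adjusted p = 0.408). The call in WD+IM against WD was lost with median centring (limma adjusted p = 0.0636), with no trend (0.0704), with the spike-in term (0.0906) and with the beta-actin term, where the difference was -0.69 (limma adjusted p = 0.454). It was also lost without WD replicate 1 or 2, or without WD+IM replicate 1 or 3, at limma adjusted p of 0.0678, 0.14, 0.0999 and 0.092.

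The number of calls in WD+IM against WD moved widely. Quantile normalization left 2, the median of the family then being -0.02, and median centring left 0 by limma (3 lower and 2 higher at an unadjusted p under 0.05), with a median of -0.27. Without WD+IM replicate 2, whose members were the brightest of its group, 19 were called. Without UB replicate 1, WD replicate 1, WD replicate 2, WD replicate 3, WD+IM replicate 1 or WD+IM replicate 3 there were 2, 5, 2, 2, 1 and 1.

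**Figure D3:**
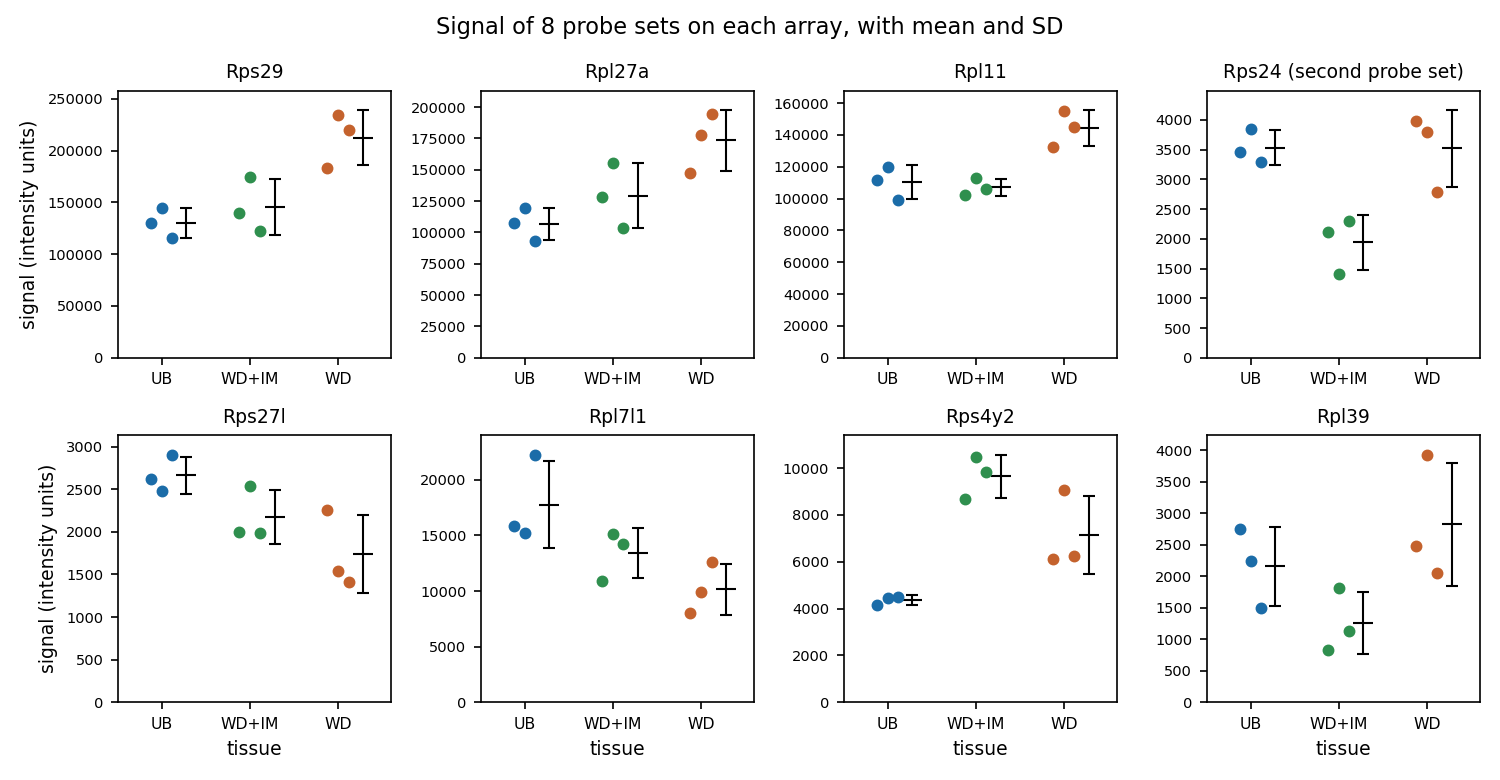
Signal in intensity units of 8 probe sets on each array, in UB, WD+IM and WD from left to right, with the mean and SD of 3 pools beside the points. Rps29, Rpl27a and Rpl11 belong to the bright block and are highest in WD. Rps4y2 lies at 4142 to 4516 in UB and 8677 to 10475 in WD+IM, and the second Rps24 probe set is lowest in WD+IM.

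UB against WD+IM compares the bud with a duct that carries mesoderm. The bright block barely moved, with a median of -0.09 and differences from -0.30 to 0.35. Of 46 genes, 0 were higher and 1 was lower in UB, against 13.6% and 16.6% of all genes tested, and 30.3% of all genes were called in either direction. The groups did not overlap in 2 genes, Rpl7l1 higher and Rps4y2 lower in UB, against 24.2% and 25.7% of all genes. Rpl7l1 differed by 0.39 ± 0.20 and did not pass (limma adjusted p = 0.177). With each array centred on its median, 3 members were higher and 1 lower, against 26.9% and 9.54% of all genes. The family's median was then 0.27 and that of all genes 0.35. Relative to all genes the family lay at -0.08, the same as in the deposited scaling.

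The lower gene was Rps4y2, a copy of the 40S protein S4 that the GRCr8 table places on chromosome 4. It had 4142, 4471 and 4516 in UB, 8677, 10475 and 9813 in WD+IM and 6119, 9059 and 6234 in WD. The 3 UB pools were the lowest of the 9. The WD+IM and WD pools overlapped, through WD replicate 2. UB was below WD+IM by -1.13 ± 0.17 on the log2 scale (limma adjusted p = 0.000263), and below WD by -0.68 ± 0.17 (limma adjusted p = 0.00983). The first of these passed in 23 of 23 alternative settings, with adjusted p from 7.03e-05 to 0.0194. The second was lost with median centring (-0.22, limma adjusted p = 0.492), the spike-in term (0.246) and the beta-actin term (0.0671). WD+IM was above WD by 0.45 ± 0.17 without passing (limma adjusted p = 0.0949). The summed mesenchyme, endothelium and red cell markers of UB were also below those of the other tissues.

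A second probe set of Rps24, singled out after its values were seen, ran apart from the first. The bright probe set, which represents Rps24 in all counts, averaged 111721 ± 14178 in UB, 128845 ± 20275 in WD+IM and 172659 ± 21018 in WD (SD, n = 3 each). The dim one had 3467, 3853 and 3292 in UB, 2115, 1417 and 2297 in WD+IM and 3984, 3791 and 2788 in WD. Its WD+IM pools were below all others. UB was above WD+IM by 0.88 ± 0.21 (limma adjusted p = 0.00831), a call lost with the spike-in term (0.61, limma adjusted p = 0.235). Its difference from WD was 0.02 ± 0.21 (limma adjusted p = 0.952). WD+IM was below WD by -0.85 ± 0.21 (limma adjusted p = 0.0188), a call lost without WD replicate 1, WD replicate 2 or WD+IM replicate 2 (limma adjusted p of 0.0702, 0.0676 and 0.0678). It was also lost with median centring (0.0699) and with the beta-actin term (-0.54, limma adjusted p = 0.366). RPS24 messengers in humans are made in several spliced forms. Which transcripts either rat probe set reads is not given in the sources used here.

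Members that departed from their own family were sought by centring each array on the median of the tested ribosomal protein genes, a setting chosen after the data were seen. In UB against WD, 3 were then higher and 1 lower, against 34.9% and 7.86% of all genes, or 42.7% in either direction. Rpl7l1 lay 1.24 ± 0.21 above the family (limma adjusted p = 0.0011) and Rps27l 1.06 ± 0.24 above it (limma adjusted p = 0.00499). Rpl14, of the large subunit, lay 0.24 ± 0.09 above (limma adjusted p = 0.0494), and Rps29 lay -0.27 ± 0.09 from it (limma adjusted p = 0.0316). In WD+IM against WD, 2 were higher and 0 lower, against 23.6% and 4.19% of all genes, or 27.8% in either direction. These were Rps4y2 at 0.82 ± 0.18 (limma adjusted p = 0.00867) and Rpl7l1 at 0.77 ± 0.21 (limma adjusted p = 0.0234). The second probe set of Rpl7l1 lay at only 0.12 ± 0.20 there (limma adjusted p = 0.687). In UB against WD that probe set lay at 0.55 ± 0.20 (limma adjusted p = 0.0421). For UB against WD+IM only Rps4y2 was called, lower at -1.06 ± 0.18 (limma adjusted p = 0.000919), against 13.4% of all genes lower, 12.8% higher and 26.2% in either direction. Within the bright block the SD of the differences over genes was 0.16 in UB against WD, 0.09 in WD+IM against WD and 0.13 in UB against WD+IM, and among the 8 dim genes 0.61, 0.54 and 0.61.

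Genes that make ribosomes did not follow the proteins of the finished particle. Of 58 ribosome biogenesis genes tested, 31 were higher and 0 lower in UB against WD, with a median of 0.51, against 13.3% and 19.6% of all genes. In UB against WD+IM 27 were higher and 0 lower, with a median of 0.45, against 13.6% and 16.6% of all genes. Fibrillarin (Fbl), the methyltransferase that modifies ribosomal RNA in the nucleolus, averaged 39817 ± 1886 in UB, 21936 ± 3612 in WD+IM and 20430 ± 2949 in WD (SD, n = 3 each). It was higher in UB than in WD by 0.97 ± 0.14 on the log2 scale (limma adjusted p = 0.000468). The RNA helicase Ddx21 was higher by 1.18 ± 0.19 (limma adjusted p = 0.000707), and Gar1, of the pseudouridylation complexes, by 0.77 ± 0.12 (limma adjusted p = 0.000881). In WD+IM against WD only Noc4l passed, higher at 0.45 ± 0.13 (limma adjusted p = 0.0441; 0.0952 with median centring), with a median of 0.04 for the list. The UB against WD count was 28 higher with quantile normalization and 53 with median centring, a setting in which 32.6% of all genes were higher, and leaving out single arrays gave 24 to 33. With the spike-in ratio as a term it was 1, at a median of 0.46, and 1.15% of all genes were higher. With the beta-actin ratio as a term it was 20, with 1 lower, at a median of 0.54. The share of all genes called in that fit is not given here. The UB against WD+IM count was 45 with median centring (26.9% of all genes higher), 6 with the spike-in term (5.09%) and 17 without UB replicate 1.

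Mitochondrial ribosomal proteins, which build the separate ribosome of that organelle, had no lower call in UB against WD. Of 73 genes, 24 (32.9%) were higher and 0 lower in UB against WD, with a median of 0.32, against 13.3% and 19.6% of all genes. Mrps34 averaged 7122 ± 417 in UB and 3032 ± 737 in WD, a log2 difference of 1.25 ± 0.19 (limma adjusted p = 0.000608). Between UB and WD+IM 9 (12.3%) were higher and 0 lower in UB, a share of higher genes near the 13.6% of all genes, and in WD+IM against WD 1 was higher, Mrps17 at 0.50 ± 0.12 (limma adjusted p = 0.0179; 0.0879 with median centring). Quantile normalization left 13 higher in UB against WD (12.7% of all genes higher), and median centring gave 54 (32.6%). The spike-in term left 0 by limma (4 higher and 1 lower at an unadjusted p under 0.05), with a median of 0.09. In that fit 1.15% of all genes were higher. The beta-actin term left 15 higher and 0 lower, at a median of 0.34. Leaving out UB replicate 1, UB replicate 2, UB replicate 3 or WD replicate 1 left 10, 14, 14 and 15. For UB against WD+IM, leaving out UB replicate 1, UB replicate 2, UB replicate 3 or WD+IM replicate 1 left 2, 5, 5 and 3 higher.

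Translation factors lay between. Of 34, 10 (29.4%) were higher and 1 (2.94%) lower in UB against WD, with a median of 0.18, against 13.3% and 19.6% of all genes. With median centring 23 were higher in UB against WD (32.6% of all genes higher) and 15 in UB against WD+IM (26.9%). With the spike-in term 1 was higher in each, where 1.15% and 5.09% of all genes were higher. The beta-actin term left 5 higher and 1 lower in UB against WD. Etf1, the factor that reads stop codons, was higher by 1.04 ± 0.13 (limma adjusted p = 0.000147) and Eif4e, the cap-binding protein, by 0.71 ± 0.12 (limma adjusted p = 0.000899). The lower gene was Eef1a1, the elongation factor that delivers transfer RNA and whose messenger carries the same pyrimidine motif, at -0.48 ± 0.11 (limma adjusted p = 0.00806). With quantile normalization or median centring Eef1a1 lay at -0.02. Between UB and WD+IM 7 (20.6%) were higher and 0 lower in UB, against 13.6% and 16.6% of all genes. In WD+IM against WD 0 passed by limma (3 higher and 2 lower at an unadjusted p under 0.05). Without UB replicate 1 the counts of higher factors were 6 in UB against WD and 3 in UB against WD+IM, and the second was 4 without UB replicate 2, WD+IM replicate 1 or WD+IM replicate 2. Of 12 other genes known for pyrimidine-motif messengers or for a place on the ribosome, 3 were lower in UB than in WD (Vim, Eef1a1 and Rack1) and 0 higher, with a median of -0.08. These are 25% of the list, near the 19.6% of all genes, and with the spike-in term 0 passed by limma (1 lower and 1 higher at an unadjusted p under 0.05). The Rack1 difference of -0.54 ± 0.15 (limma adjusted p = 0.0199) was -0.27 (0.0645) with quantile normalization and -0.08 (0.785) with median centring. Vim is also an intermediate filament gene of mesenchyme and was higher in WD+IM than in WD by 1.86 ± 0.18 (limma adjusted p = 7.41e-05).

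Among 20 genes that control ribosome output, 2 were higher and 3 lower in UB against WD, with a median of -0.04. These shares, 10% and 15%, lie below the 13.3% and 19.6% of all genes, and 0 passed by limma with the spike-in term (2 lower and 1 higher at an unadjusted p under 0.05). Single members are given as values. Mycn, a Myc family transcription factor known to drive ribosome genes, was higher by 0.72 ± 0.18 (limma adjusted p = 0.00961). Mxi1, a Myc antagonist, was lower by -0.71 ± 0.14 (limma adjusted p = 0.0036; -0.25 and 0.383 with median centring), and the p53 target Cdkn1a by -1.28 ± 0.21 (limma adjusted p = 0.00104). Cdkn1a was lower by the same -1.28 ± 0.21 in WD+IM against WD (limma adjusted p = 0.00195). Myc was lower there, at -0.65 ± 0.17 (limma adjusted p = 0.0265; 0.132 with median centring). Set against WD+IM, UB had 4 of the 20 higher and 1 lower (20% and 5%, against 13.6% and 16.6% of all genes). Mycn was higher by 0.82 ± 0.18 (limma adjusted p = 0.00432), and the S6 kinase gene Rps6kb1 by 0.71 ± 0.15 (limma adjusted p = 0.00347). The 3 comparisons share arrays, so their values stand side by side and are not independent.

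**Figure D4:**
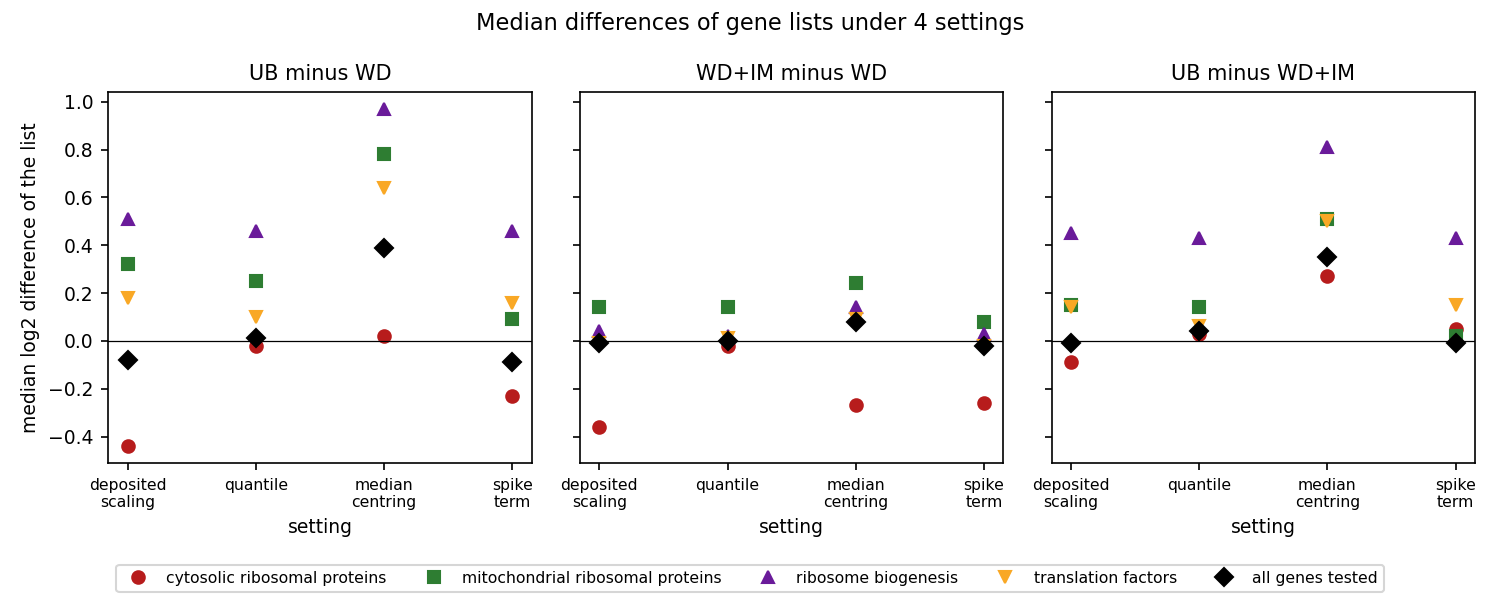
Median log2 difference of 4 gene lists and of all genes tested, in the deposited scaling, after quantile normalization, after centring each array on its median signal, and with the spike-in ratio as a term. In UB minus WD the cytosolic ribosomal proteins lie at -0.44, -0.02, 0.02 and -0.23 and ribosome biogenesis genes at 0.51, 0.46, 0.97 and 0.46, in that order of settings. All genes lie at 0.39 after median centring.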

How the data were processed

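Intensity values for 31099 probe sets on 9 arrays were used as the authors deposited them. GCOS made them, per the submitters' processing notes. Its version, summary method and settings were not stated in any source used here. The deposited intensities are linear and share a mean near 2501 after 2% of probe sets is removed at each end, so every difference is relative to the rest of its array. Detection calls were not used. Per the labels' protocols, biotinylated cRNA was made from total RNA. The labels call the pools biological replicates, so p-values reflect the variation among 3 pools of a tissue, and that number limits the precision.

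Of the probe sets, 57 were controls, 20826 had 1 gene symbol in the platform table, 436 several and 9780 none. Of those with 1 symbol, 20758 matched GRCr8 by Entrez ID, and 46 of the 48 member genes did. Values were tested as log2(intensity + 46), the 10th percentile of all values, which understates changes of dim genes. Probe sets needed at least 3 of 9 arrays above the array's 40th percentile, leaving 20330 probe sets and 10809 genes. limma 3.58.1 in R 4.3.3 was fitted to all 9 arrays with group as the only term and a mean-variance trend, with 6 residual and 6.08 prior degrees of freedom. Each comparison's p-values were adjusted across all tested probe sets (Benjamini-Hochberg), and an adjusted p under 0.05 was a call. The fit was also run on simulated data with independent noise for each probe set. Those data held no shift shared by an array or a gene family. They therefore do not bear on how the family's result depends on scaling. Where a gene had several probe sets, the brightest on average stood for it.

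Named genes were, for each comparison, the 10 members with the smallest adjusted p, the 3 largest rises and 3 largest falls, the paralogues, a fixed set of well-known members, and up to 3 genes of each related list with the smallest p. Members and lists were chosen with earlier results of these data known, so no list test was made. The alternatives tried were median centring, quantile normalization, different pseudocounts, different filters on low signal, no trend, fits to 2 groups, the spike-in or beta-actin ratio as a term, the replicate block, and each array left out.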

Additional observations from a re-analysis of the deposited data

How the results depend on the processing

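The counts of called members were 32, 8 and 1 in UB against WD, WD+IM against WD and UB against WD+IM. In UB against WD the count was 3 with quantile normalization, 2 with median centring, 19 with no filter, 16 with no trend, 0 with the spike-in ratio as a term, 9 with the beta-actin ratio as a term and 4 with centring on the family (added after seeing the data), and 15 to 33 with single arrays left out. The median was -0.02, 0.02, -0.23 and -0.01 with quantile normalization, median centring, the spike-in term and centring on the family, and -0.52 to -0.37 with single arrays left out. In WD+IM against WD the count was 2 with quantile normalization, 0 with median centring, 2 with no filter, 1 with no trend, 2 in a fit to the 2 groups, 1 with the spike-in term, 0 with the beta-actin term (7 lower and 1 higher at an unadjusted limma p under 0.05) and 2 with centring on the family, and 1 to 19 with single arrays left out. Its median was -0.02 with quantile normalization, 0.0 with centring on the family and -0.47 to -0.26 with single arrays left out. In UB against WD+IM the count was 4 and the median 0.27 with median centring, where the median of all genes was 0.35. With single arrays left out the count was 1 to 2 and the median -0.16 to 0.01. The family's share of signal was 5.28% in UB, 5.69% in WD+IM and 7.33% in WD over the trimmed sum, and 3.73%, 4.0% and 4.98% with all member probe sets. Signs of called differences were compared under all settings only for the genes named in each comparison. In UB against WD, Rpl11 reversed to 0.13, 0.07 and 0.05 with quantile normalization, median centring and centring on the family. Rplp0 reversed to 0.06 and 0.04 with the last 2 of these, and Rps23 to 0.07 with quantile normalization. Called members outside the named set also turned positive with centring on the family. Among them were Rpl7 (0.03), Rpl12 (0.01), Rpl18 (0.01), Rpl34 (0.02), Rpl35 (0.08) and Rps28 (0.01). Their signs under the other settings are not given here. Another 14 values of the named genes in UB against WD changed sign without being called in either setting. They were in Rpl13a, Rpl26l1, Rpl28, Rpl39, Rpl39l1, Rps13 and Rpsa. Apart from what the construction of quantile normalization and of family centring sets, the cause was not tested. Of 1443 values of named genes under alternatives, 1183 kept direction and side of the threshold, 57 changed sign without being called in either setting, 181 lost the call, 16 gained it and 6 called values reversed. Same-numbered arrays deviated together at correlations of -0.348 to 0.277 and others at -0.262 to 0.3. These ranges overlap, and with 3 arrays per group the check cannot exclude that pools were paired by number. With the replicate block the counts were 29, 9 and 1. The 3 pools per tissue and the missing detection calls limit what can be said of dim members.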
